A study of Homo sapiens with 24 samples.

Results

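The effect of SF3B2 overexpression on RNA levels was compared between HEK293T, an embryonic kidney line of human origin, and A549, a line from a human lung adenocarcinoma. The comparison used 12 of the 24 libraries of the series, chosen by the cell line and plasmid in their labels. These were the SF3B2 and eGFP libraries, replicates 1 to 3 in each line. All cells were transfected with plasmid by Lipofectamine 3000 and collected after 48 h, and the control cells carried an eGFP plasmid in place of the SF3B2 plasmid. HEK293T was kept in DMEM and A549 in F-12K, so that line and medium cannot be told apart. The libraries were stranded and were made from poly(A) RNA after rRNA depletion. SF3B2 and eGFP were expressed from pcDNA vectors, and the scramble control used further on carried a short RNA under a U6 promoter. The value reported, the interaction, is the log2 fold change in A549 (SF3B2 relative to eGFP) minus the same value in HEK293T. A positive value means a more positive effect in A549.

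SF3B2 is a subunit of the SF3b complex of the U2 snRNP, the small nuclear ribonucleoprotein that recognises the branch point near the 3′ splice site and helps place it for the first step of splicing. HEK293T carries the SV40 large T antigen, which binds p53, and is known for a weak response to DNA in the cytosol. A549 expresses wild-type p53, has constitutive NRF2 activity and mounts an interferon response to many nucleic acids. Stress genes are a common readout of transfection and of high protein expression in such lines. These include the heat shock proteins, the chaperones of the endoplasmic reticulum (ER) and the targets of ATF4. Interferon response genes were held as a list of their own, and the genes named below lie outside it. Lying outside that list does not show that a gene takes no part in the response, which was not tested.

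The 12 libraries held between 195186194 and 259704262 estimated counts. Levels are given in CPM, counts scaled to the library total after TMM normalization, and are not per length. The limit that a count of 0 sets (3 counts) lay between 0.0116 and 0.0154 CPM and covers counting error only. Nothing in the labels shows a shared culture, and the p-values measure only the spread between these libraries. SF3B2 (ENSG00000087365, chromosome 11 of GRCh38, 66050729 to 66069308, plus strand) checked the labels. It was at 297.5, 327.7 and 289.5 CPM in the HEK293T eGFP libraries and at 37340, 28750 and 23810 CPM in the SF3B2 libraries. In A549 it was at 301.5, 305.2 and 360.4 CPM with eGFP and at 48660, 46560 and 45330 CPM with SF3B2. Every SF3B2 library was far above every eGFP library in both lines. The log2 fold change was 6.62 in HEK293T (SE 0.18) and 7.18 in A549 (SE 0.19), and the interaction of 0.56 (SE 0.20) did not pass the test (adjusted p = 0.109, edgeR's quasi-likelihood test with Benjamini-Hochberg adjustment over 24714 genes). It passed with DESeq2 (adjusted p = 0.0333), with scaling by library size alone (0.03) and without HEK293T SF3B2 1 (0.0248). Reads from the plasmid's copy of the coding sequence are part of these levels.

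One control library stood apart. HEK293T eGFP 3 held transcripts typical of A549: ALDH1A1, a retinaldehyde dehydrogenase, was at 422.5 CPM there against 3.38 and 3.12 CPM in eGFP 1 and 2 and at least 10874 CPM in A549 eGFP. All 12 listed A549 markers were higher in it than in eGFP 1 and 2. Their summed level was 701.7 CPM, against 52.0 and 54.2 CPM, and their median level was 3.6% of that in A549 eGFP. In HEK293T SF3B2 3, ALDH1A1 was at 12.4 CPM and AKR1B10, an aldo-keto reductase, at 4.76 CPM, with a marker sum of 78.4 CPM against 63.1 and 68.1 CPM in SF3B2 1 and 2. CDKN2A, a marker of HEK293T, was at 42.5 to 67.6 CPM in all 6 HEK293T libraries and at most 0.028 CPM in the 6 A549 libraries. Values below are from all 12 libraries unless HEK293T eGFP 3 is said to be left out. Of the 49 named genes called in the interaction, 48 were also called without it, INHBA being the exception. Part of them were named by a rule that required this, so the count is no check on this library. Of all 1507 genes called, 1300 were called in the same direction without it. Of the 11 HEK293T markers tested, INA and L1CAM were higher in A549.

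With 12 libraries, 1507 of 24714 genes were called in the interaction at an adjusted p under 0.05, which is 6.1% of the genes tested (edgeR's quasi-likelihood test). Of these, 638 (2.58%) had a more positive and 869 (3.52%) a more negative effect in A549. Without HEK293T eGFP 3 the counts were 717 (2.82%) and 1055 (4.15%) of 25393 genes, and 1300 of the 1507 calls were shared in direction. Within HEK293T the same fit called 640 genes higher (2.59%) and 638 lower (2.58%) with SF3B2, and within A549 153 higher (0.619%) and 330 lower (1.34%). That fit uses 1 estimate of spread for both lines. With each line fitted by itself the order was the reverse, at 39 genes called in HEK293T and 1516 in A549. Among the 12644 genes at a mean of 1 log2 CPM or more, 404 (3.2%) were called more positive and 764 (6.04%) more negative in A549. Without HEK293T eGFP 3 these shares were 3.8% and 7.46%. The counts depended on single libraries: leaving out 1 moved the interaction count by over 1.5 times in 10 of 12 cases, from 423 without HEK293T SF3B2 2 to 4527 without HEK293T SF3B2 3. With the replicate number as a block within each line, 402 genes were called in the interaction, 218 of them more positive, and 308 in HEK293T and 251 in A549. Scaling by library size alone turned the split of the interaction to 924 more positive and 292 more negative, since it moved the median interaction of all genes from 0.02 to 0.19 on the log2 scale. With the GC trend of each library taken out and without HEK293T eGFP 3 the split was 687 and 524.

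The called genes were set by either line. Of the 1507, 216 were also called lower in A549 and not called in HEK293T, and 89 were called higher in A549 and not in HEK293T. In HEK293T, 338 were called higher and 308 lower with no call in A549. For 19 genes the call was higher in HEK293T and lower in A549, and for 8 the reverse. A further 527 were called in neither line, only in the difference. The 2 effects had opposite signs in 1363 of the 1507 genes. Interferon response genes made up 94 of the 1507, all of them more negative in A549, and the median interaction of the 202 tested was -0.88 with 12 libraries and -1.14 without HEK293T eGFP 3.

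**Figure D1:**
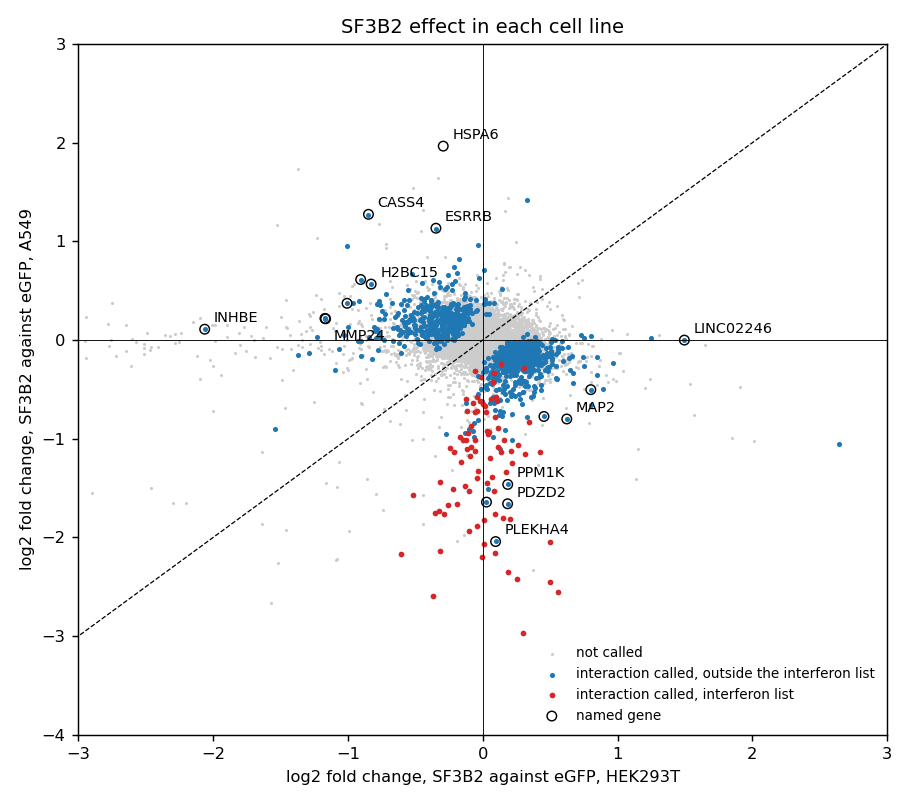
Each point is a gene at a mean of 1 log2 CPM or more, SF3B2 left out, with HSPA6 added. The x axis is the log2 fold change with SF3B2 over eGFP in HEK293T and the y axis the same in A549, the dashed line marks equal effects, and 57 genes lie outside the x range. HSPA6, CASS4 and ESRRB lie above the line, PLEKHA4, PDZD2 and PPM1K far below it among the interferon genes, and LINC02246 to the right.

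HSPA6 (ENSG00000173110, chromosome 1, 161524540 to 161526894, plus strand) encodes an inducible member of the HSP70 chaperone family that is near silent without stress. It is first here because its promoter and its values can be shown together. RefSeq gives the 300 bases from 250 before to 50 after its start at chr1:161524290-161524589, plus strand, on GRCh38.p14, with the match to the heat shock element in capitals.
HSPA6: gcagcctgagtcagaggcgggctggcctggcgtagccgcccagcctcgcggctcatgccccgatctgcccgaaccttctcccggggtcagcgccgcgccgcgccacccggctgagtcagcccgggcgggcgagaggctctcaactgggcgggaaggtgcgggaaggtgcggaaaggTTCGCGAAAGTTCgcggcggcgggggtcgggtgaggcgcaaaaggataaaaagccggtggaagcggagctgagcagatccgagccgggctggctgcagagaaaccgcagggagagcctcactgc
The match begins 74 bases before the start and is read here from the complement of the motif. The motif, the units GAA, TTC and GAA each 2 bases apart, was searched on both strands of 27305 promoters and was present in 0.487% of them. Of the 50 genes named here, 35 had a promoter in the table and HSPA6 alone held this motif. A match describes these letters only and was not tested as a binding site.

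HSPA6 was at 2.28, 2.225 and 2.12 CPM in the A549 eGFP libraries and at 8.6, 8.4 and 8.84 CPM with SF3B2. In HEK293T it was at 0.78, 0.922 and 0.791 CPM with eGFP and at 0.623, 0.666 and 0.745 CPM with SF3B2. The 3 A549 SF3B2 libraries were close to each other and above all others. The HEK293T SF3B2 libraries lay just below their eGFP controls and above the HEK293T scramble libraries. The log2 fold change was 1.97 (SE 0.10) in A549 and -0.29 (SE 0.10, adjusted p = 0.113) in HEK293T, and the interaction was 2.26 (SE 0.15, adjusted p = 0.00024, edgeR's quasi-likelihood test). It was 2.29 without HEK293T eGFP 3 and passed the threshold without any 1 of the 12 libraries. Reads of HSPA6 can be shared with its near copy HSPA7.

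Few other heat shock proteins were called against eGFP. Of 26 tested, HSPA6 included, 2 were called more positive in A549 and 2 more negative, and the list median was -0.10, against -0.02 for all genes at 1 log2 CPM or more, and 0.07 against 0.14 when scaling by library size alone. Of all genes at 1 log2 CPM or more, 3.2% were called more positive and 6.04% more negative. With the replicate block 1 of the 26 was called, HSPA6. DNAJB2, a co-chaperone of HSP70, was the other positive call (interaction 0.60, SE 0.11, adjusted p = 0.0186, edgeR's quasi-likelihood test). HSP90AA1, the inducible cytosolic HSP90, and DNAJA1, a co-chaperone, were the negative calls, at -0.36 and -0.47. HSPA1A, the main stress-induced HSP70, was at 110.3 to 120.9 CPM with eGFP and 156.2 to 161.4 CPM with SF3B2 in A549, and its interaction did not pass (1.55, SE 1.06, and -0.14 without HEK293T eGFP 3). DNAJB1 (0.03) and BAG3 (0.19), both activated by the heat shock factor HSF1, did not pass either. Against scramble, without A549 scramble 3, 4 of the 26 were called more positive and 14 more negative, with a median of -0.38. Of the 12644 genes at 1 log2 CPM or more, 2874 were called more positive and 2513 more negative by that fit.

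Among the 905 genes open to naming, which were called with and without HEK293T eGFP 3, averaged 1 log2 CPM or more and lay outside the interferon list, 345 were more positive and 560 more negative in A549. INHBE, an inhibin subunit and target of ATF4, had the most positive interaction. It was at 11.4, 13.5 and 10.2 CPM in HEK293T eGFP and at 2.44, 2.52 and 3.46 CPM with SF3B2. In A549 it stayed between 1.05 and 1.65 CPM with eGFP and between 1.08 and 1.77 CPM with SF3B2. The HEK293T groups were apart and the A549 groups overlapped. The interaction was 2.17 (SE 0.32, adjusted p = 0.00625, edgeR's quasi-likelihood test), from a log2 fold change of -2.06 in HEK293T, and was 2.26 without HEK293T eGFP 3. Of the 43 genes of the ATF4 list tested, INHBE alone passed with 12 libraries, against 2 more positive and 3 more negative without HEK293T eGFP 3.

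CASS4, a docking protein of focal adhesions, moved in both lines in opposite directions. It was at 8.6, 10.3 and 8.42 CPM in HEK293T eGFP and at 4.94, 5.3 and 4.96 CPM with SF3B2. In A549 it was at 0.334, 0.395 and 0.48 CPM with eGFP and at 0.944, 0.973 and 1.01 CPM with SF3B2. All SF3B2 libraries were below their controls in HEK293T and above them in A549. The interaction was 2.12 (SE 0.19, adjusted p = 0.000494, edgeR's quasi-likelihood test), and 2.175 without HEK293T eGFP 3.

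ESRRB, an orphan nuclear receptor of pluripotent cells, rose in A549 from 0.81, 0.503 and 0.583 CPM to 1.71, 1.38 and 1.07 CPM. In HEK293T it was at 5.94, 5.9 and 5.64 CPM with eGFP and at 3.99, 4.48 and 5.26 CPM with SF3B2, a log2 fold change of -0.35 (adjusted p = 0.295). Its interaction was 1.48 (SE 0.29, adjusted p = 0.0194, edgeR's quasi-likelihood test) and was lost, at an adjusted p of up to 0.0595, without A549 SF3B2 2 or without HEK293T SF3B2 2. The other genes with the most positive values were DNAH17, an axonemal dynein heavy chain (1.38, lost in 2 of 12 such fits), and MMP24, a membrane-anchored metalloproteinase (1.39). MMP24 was at 1.42, 1.57 and 2.69 CPM in HEK293T eGFP, the highest value being that of eGFP 3, and at 0.84 ± 0.19 CPM (SD, n = 3) with SF3B2. Its A549 levels were 49.5 to 65.9 CPM in all libraries. Without HEK293T eGFP 3 its interaction was 1.05, and its call was lost in 8 of the 12 fits that left out a library. SMG1P2 (1.52), a pseudogene of the kinase gene SMG1, and SLX1A-SULT1A3 (1.38), a readthrough transcript of genes with near-identical copies whose call was lost in 9 of 12 fits, share sequence with other genes, and their values are uncertain.

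**Figure D2:**
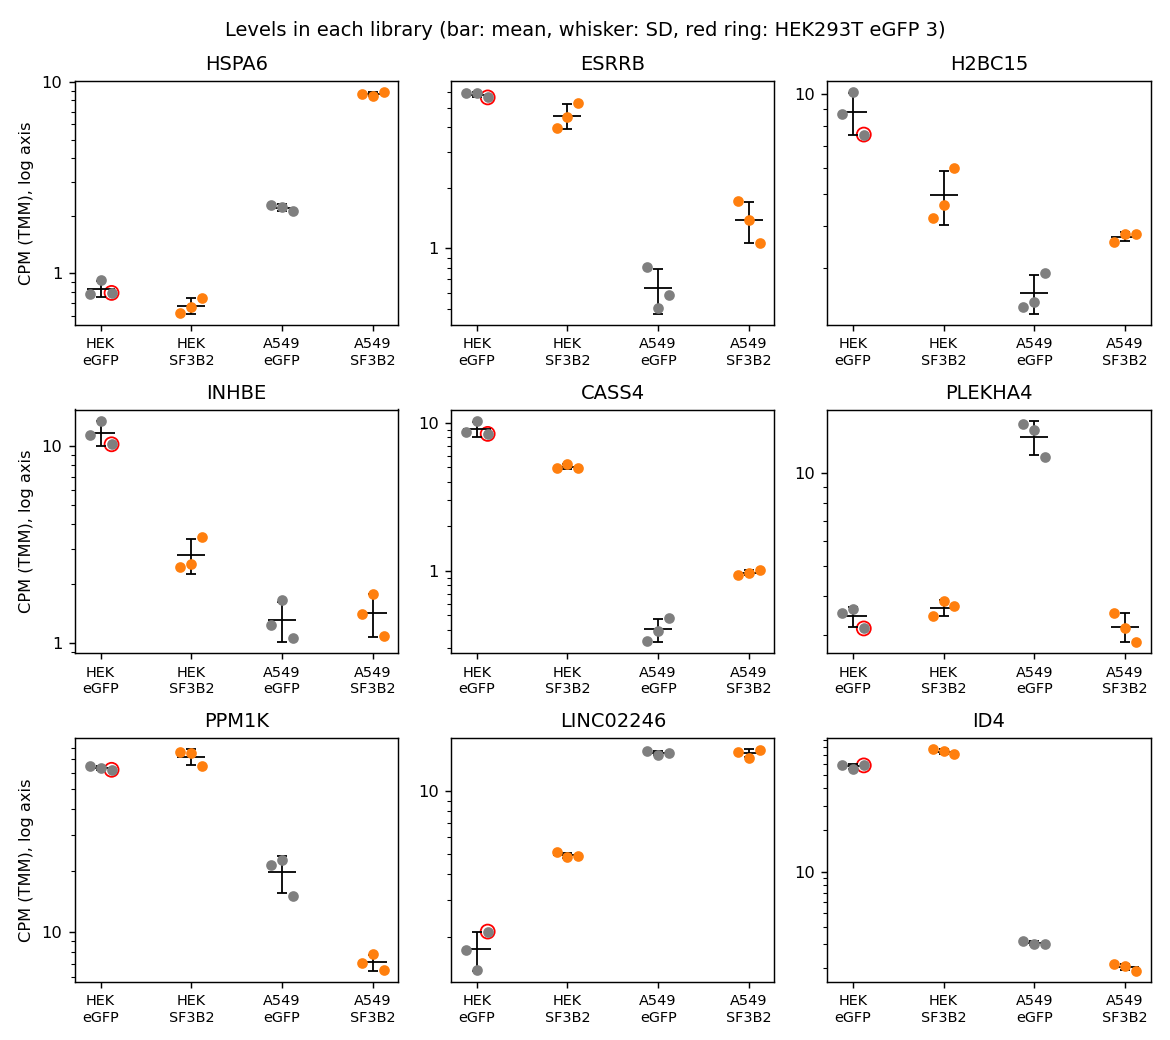
Each panel shows 1 gene in TMM-scaled CPM on a log axis, with the 3 eGFP libraries in grey and the 3 SF3B2 libraries in orange for each line, the mean as a bar, the SD as a whisker and HEK293T eGFP 3 ringed in red. HSPA6 is highest in the 3 A549 SF3B2 libraries, INHBE and CASS4 are highest in HEK293T eGFP, and PLEKHA4 is high in the 3 A549 eGFP libraries.

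The most negative value came from a gene that fell in A549. PLEKHA4, a phosphoinositide-binding adaptor of Wnt signalling, was at 14.3, 13.7 and 11.2 CPM in A549 eGFP and at 3.52, 3.16 and 2.85 CPM with SF3B2. In HEK293T it stayed between 3.14 and 3.87 CPM in all 6 libraries. The A549 groups were apart and the HEK293T groups overlapped, and the interaction was -2.14 (SE 0.17, adjusted p = 0.000307, edgeR's quasi-likelihood test), and -2.08 without HEK293T eGFP 3. PDZD2, a multi-PDZ scaffold protein, fell in A549 from 2.09 ± 0.11 to 0.66 ± 0.02 CPM (SD, n = 3), with an interaction of -1.84. PPM1K, the mitochondrial phosphatase that activates breakdown of branched-chain amino acids, was at 21.3, 22.5 and 15 CPM in A549 eGFP and at 7.09, 7.77 and 6.49 CPM with SF3B2, with an interaction of -1.65. MAP2, a neuronal microtubule-associated protein, was at 12.7 ± 0.84 CPM with eGFP and 7.28 ± 0.32 CPM with SF3B2 in A549 (SD, n = 3), with an interaction of -1.42. The interaction of these 4 was called without any 1 library, and that of MAP2 was not called with the replicate block (adjusted p = 0.0606, edgeR's quasi-likelihood test). Against scramble, without A549 scramble 3, none of the 4 was called more negative.

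LINC02246, a long noncoding RNA of unknown function, had a large negative interaction of another kind. It was at 1.74, 1.39 and 2.13 CPM in HEK293T eGFP and at 5.09, 4.84 and 4.88 CPM with SF3B2. In A549 it was between 14.4 and 15.8 CPM in all 6 libraries. The HEK293T groups were apart and the A549 groups overlapped. The log2 fold change was 1.495 in HEK293T (SE 0.13), and the interaction was -1.496 (SE 0.17, adjusted p = 0.00167, edgeR's quasi-likelihood test), and -1.66 without HEK293T eGFP 3. SLC1A3, a glutamate transporter, rested on A549 levels of 0.146 to 0.344 CPM with eGFP and 0.0439 to 0.109 CPM with SF3B2, close to the limit of a count of 0, and was lost in 8 of 12 fits without a library. The small Cajal body RNA SCARNA7 (-1.30) and the pseudogene HMGB1P5 (-1.23), which shares sequence with HMGB1, were lost in 10 and 9 of these fits.

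Opposite changes in both lines were called for 20 of the 905 genes, 15 of them lower in A549 and 5 higher. ID4, an inhibitor of basic helix-loop-helix factors, rose in HEK293T from 59.1, 55 and 58.6 CPM to 76.9, 74 and 70.5 CPM. It fell in A549 from 3.15, 3.02 and 2.98 CPM to 2.14, 2.07 and 1.92 CPM, with an interaction of -0.93 (SE 0.08, adjusted p = 0.000436, edgeR's quasi-likelihood test). SLC2A12, a glucose transporter, likewise rose in HEK293T from 15.4 ± 0.95 to 20.7 ± 0.74 CPM and fell in A549 from 6.92 ± 0.32 to 4.86 ± 0.18 CPM (SD, n = 3), an interaction of -0.94. LRCH2, a leucine-rich repeat protein (-0.94), and TMEM50A, a membrane protein (-0.70), had the same pattern. Against these, SMTN (smoothelin, an actin-binding protein of smooth muscle; 0.72), CYP39A1 (an oxysterol hydroxylase; 0.85) and SPRED3 (an inhibitor of RAS signalling; 0.83) fell in HEK293T and rose in A549. The groups did not overlap in either line for these 7 genes, and the interaction of each was called without any 1 library. LRCH2 and CYP39A1 were low in A549. The means of LRCH2 with eGFP and SF3B2 were 0.58 and 0.394 CPM in A549, against 82 and 106.2 CPM in HEK293T. Those of CYP39A1 were 0.378 and 0.512 CPM in A549, against 10.5 and 7.88 CPM in HEK293T. The calls within a line were less firm: without HEK293T eGFP 3, LRCH2 was called in neither line (adjusted p = 0.0542 in HEK293T and 0.0718 in A549, edgeR's quasi-likelihood test) and CYP39A1 was not called in A549 (0.0656). All of this rests on eGFP as control. Against scramble, without A549 scramble 3, the interaction was called in the opposite direction for SLC2A12 (0.93) and ID4 (0.40). It was not called for LRCH2, TMEM50A, SMTN, CYP39A1 and SPRED3.

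The promoter of SLC2A12 is shown because, of the genes with opposite changes that are named here and are in RefSeq's table, it alone had a match to the core of the interferon-stimulated element, a pair of GAAA units 2 bases apart, which is in capitals. It lies at chr6:134052575-134052874 on GRCh38.p14, minus strand.
SLC2A12: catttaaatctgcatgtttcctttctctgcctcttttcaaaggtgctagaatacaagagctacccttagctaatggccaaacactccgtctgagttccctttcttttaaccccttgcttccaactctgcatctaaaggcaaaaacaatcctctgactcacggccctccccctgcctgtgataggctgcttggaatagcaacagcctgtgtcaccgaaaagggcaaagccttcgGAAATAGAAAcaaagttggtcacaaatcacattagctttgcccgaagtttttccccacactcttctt
On either strand this motif was present in 3.65% of 27305 promoters, and in 2.62% of those of the genes at 1 log2 CPM or more. It was present in 2 of the 35 promoters of genes named here, the other being that of PSMA4. PPM1K, SOD2 and H2BC15 had a promoter in the table and no match to it.

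The gene lists were read by their counts and medians beside those of all genes at 1 log2 CPM or more. The lists were not held to that limit and include members below it. Over all 24714 genes tested, 2.58% were called more positive and 3.52% more negative, with a median of 0.02. Of the 12644 genes at 1 log2 CPM or more, 404 (3.2%) were called more positive and 764 (6.04%) more negative, with a median of -0.02. With the replicate block the counts of these 12644 genes were 67 and 147. Against scramble, without A549 scramble 3, they were 2874 and 2513, with a median of 0.03. Replication-dependent histones had the most positive median, at 1.34, and 1.55 without HEK293T eGFP 3, with 3 of 43 members called more positive and none more negative, against 2 with the replicate block and 11 against scramble without A549 scramble 3. Of the 43, 40 had a positive interaction. Their mRNAs end in a stem-loop and mostly lack a poly(A) tail, so these libraries hold the polyadenylated part. H2BC15, a histone H2B gene, was at 8.72, 10.1 and 7.55 CPM in HEK293T eGFP and at 4.25, 4.63 and 5.99 CPM with SF3B2. In A549 it was at 2.28, 2.36 and 2.89 CPM with eGFP and at 3.59, 3.78 and 3.79 CPM with SF3B2. The groups lay apart in opposite directions, with an interaction of 1.40 (SE 0.22, adjusted p = 0.008, edgeR's quasi-likelihood test). H2AC6, a histone H2A gene, fell in HEK293T from 6.12 ± 0.26 to 3.26 ± 0.23 CPM (SD, n = 3), with an interaction of 0.75, and H1-2, a linker histone, had 0.92. Histone genes are near copies of each other, and the counting could split their reads. None of the 35 cell cycle genes was called in the interaction by edgeR's quasi-likelihood test, with or without HEK293T eGFP 3, and their median was 0.0088. Of the 35, 9 had an unadjusted p under 0.05, and DESeq2 called 2 more positive and 3 more negative.

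Of 28 genes of the ER stress response tested, 9 were called more negative in A549 than in HEK293T and none more positive, with a median of -0.21, and without HEK293T eGFP 3 the counts were 8 and 0. Among all genes at 1 log2 CPM or more, 6.04% were called more negative and 3.2% more positive. ERO1A, the oxidase that drives disulfide formation in the ER, was at 104.5, 109.2 and 116 CPM in HEK293T eGFP and at 157.6, 144.2 and 128.9 CPM with SF3B2. In A549 it was at 216.4, 219.4 and 241.9 CPM with eGFP and at 193.5, 197.9 and 197.9 CPM with SF3B2. The interaction was -0.59 (SE 0.11, adjusted p = 0.0145, edgeR's quasi-likelihood test). DNAJB9, an ER co-chaperone, had -0.60, HERPUD1, a component of ER-associated degradation, -0.41, and HSPA5, the ER HSP70, -0.34. In HEK293T itself 2 members (ERO1A and CREB3L2, a transcription factor of the ER membrane) were called higher and 2 (XBP1, a transcription factor of the response, and CRELD2) lower. None of the 9 calls remained with the replicate block, and 1 of the list's genes was called more negative when scaling by library size alone. With the GC trend out and without HEK293T eGFP 3, 3 were called more negative and 1 more positive, and against scramble, without A549 scramble 3, 4 and 7.

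Of 35 hypoxia and glycolysis genes, 5 were called more negative in A549 and none more positive, against 6.04% and 3.2% of all genes at 1 log2 CPM or more. NDRG1, a hypoxia-induced gene, rose in HEK293T from 71.9, 70.5 and 71.6 CPM to 126.1, 109.9 and 95.7 CPM, and in A549 was at 69.1 ± 2.33 CPM with eGFP and 65.9 ± 4.09 CPM with SF3B2 (SD, n = 3). Its interaction was -0.70 (SE 0.12, adjusted p = 0.0114, edgeR's quasi-likelihood test). SLC2A3, a glucose transporter (-1.20), and BNIP3L, a mitophagy receptor (-0.63), also rose in HEK293T, and HK2, a hexokinase (-0.65), fell in A549. The list median was -0.14, -0.22 without HEK293T eGFP 3 and 0.03 when scaling by library size alone. With the replicate block 1 of the 5 calls was made. Against scramble, without A549 scramble 3, the direction was the reverse, with 25 of the 35 called more positive and 0 more negative and a median of 0.67. Of the 12644 genes at 1 log2 CPM or more, 2874 were called more positive and 2513 more negative by that fit. Among 30 genes of sterol synthesis and uptake, 4 were called more negative, among them STARD4, a sterol carrier (-0.79), and SC5D, a late enzyme of the pathway (-0.35), while the median was 0.05. No member was called more negative with the replicate block, with library size alone, or with the GC trend out and without HEK293T eGFP 3, and against scramble, without A549 scramble 3, 14 were called more positive and 1 more negative (edgeR's quasi-likelihood test).

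The p53 targets went both ways. Of 29 tested, 4 were called more positive (PLK3, BTG2, POLH and TIGAR) and 2 more negative (PMAIP1 and MDM2), with a median of 0.20. Of all genes at 1 log2 CPM or more, 3.2% were called more positive and 6.04% more negative. For the p53 targets the counts were 5 and 2 without HEK293T eGFP 3, and 1 and 1 with the replicate block. Against scramble, without A549 scramble 3, they were 4 and 9, with a median of -0.19. Of the 12644 genes at 1 log2 CPM or more, that fit called 2874 more positive and 2513 more negative. BTG2, an antiproliferative gene, rose in A549 from 24.7, 24.6 and 23.8 CPM to 35.4, 34.4 and 34.6 CPM, and its interaction was 0.37. PLK3, a stress-responsive polo-like kinase, had 0.89 (SE 0.18), and PMAIP1, a BH3-only protein, had -0.66 (SE 0.11). MDM2, the ubiquitin ligase of p53, had -0.37. Of 32 immediate early genes, ARC, a gene of neuronal activity, rose in A549 from 0.61 ± 0.03 to 1.29 ± 0.07 CPM (SD, n = 3), with an interaction of 1.26 that was lost in 8 of 12 fits without a library. MYC was the negative call of this list, at -0.34.

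The list of NF-kB targets and cytokines depended on HEK293T eGFP 3. With it, 1 of 33 genes was called more positive and 2 more negative, and the median was 0.05. The positive call was ICAM1, an adhesion molecule (1.04), which was not called without this library. Without it, none was more positive and 13 were more negative, and the median was -0.65. Of all genes at 1 log2 CPM or more, 3.2% were called more positive and 6.04% more negative with it, and 3.8% and 7.46% without it. Against scramble, without A549 scramble 3, 5 of the 33 were called more positive and 10 more negative, with a median of -0.33. Of the 12644 genes at 1 log2 CPM or more, that fit called 2874 more positive and 2513 more negative. CXCL8, a neutrophil chemokine, shows how the list depended on HEK293T eGFP 3. It was at 88.7, 78.8 and 68.7 CPM in A549 eGFP, at 44.4, 40.9 and 43.2 CPM with SF3B2, and at 0.133, 0.152 and 1.72 CPM in HEK293T eGFP 1, 2 and 3. Its interaction was -0.55 with all libraries and -2.77 without eGFP 3 (adjusted p = 0.000779, edgeR's quasi-likelihood test). BIRC3, an inhibitor of apoptosis, moved from 0.26 to -1.41, CXCL1 from -0.13 to -1.63, and IL6 from 0.05 to -1.83. SOD2, the mitochondrial superoxide dismutase, was called either way. It fell in A549 from 550.8, 472.6 and 463.3 CPM to 299.4, 283.2 and 287.2 CPM, was at 159.9 to 193.8 CPM in HEK293T, and had an interaction of -0.92 (SE 0.10, adjusted p = 0.00142) by the same test. The NRF2 targets likewise had a median of 0.32 with and -0.16 without this library, and 0 and 1 of 29 genes called by edgeR's quasi-likelihood test. With all libraries, 6 of these had an unadjusted p under 0.05 and DESeq2 called 0.

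Of 34 U2 snRNP and 3′ splice site factors besides SF3B2, 1 was called, U2SURP, a U2-associated SR-like protein (-0.58, adjusted p = 0.0438, edgeR's quasi-likelihood test), which was lost in 10 of 12 fits without a library. The median of these genes was -0.08, and 0.09 when scaling by library size alone. Of 45 SR proteins, hnRNPs and splicing kinases, 6 were called more negative and 1 more positive, with a median of -0.15, and 0.02 under the same scaling. The negative calls were SRSF12, an SR protein (-0.49), OGT and OGA, which add and remove O-GlcNAc (-0.39 and -0.31), PTBP3, a polypyrimidine tract-binding protein (-0.44), HNRNPA1, whose reads can be shared with its pseudogenes (-0.35), and CLK2, a kinase of SR proteins (-0.83). CLK1, another such kinase, was the positive call (0.24). None of these 7 was called with the replicate block. Against scramble, without A549 scramble 3, 2 of the 45 were called more positive and 21 more negative, with a median of -0.29. Of the 34 U2 snRNP and 3′ splice site factors, 4 were called more positive and 12 more negative by that fit. Of the 12644 genes at 1 log2 CPM or more, it called 2874 more positive and 2513 more negative. Among snoRNA host genes, DANCR (0.54) and SNHG15 (1.04) were the calls, both positive. Of 30 proteasome subunits 3 were called more negative, and of 77 cytosolic ribosomal proteins 2 (RPL14 and RPL23). Of 13 polyamine genes 1 was called more negative (SMS, spermine synthase). Of 39 extracellular matrix genes 1 was called more negative (INHBA, an activin subunit), but not without HEK293T eGFP 3. Of all genes at 1 log2 CPM or more, 6.04% were called more negative and 3.2% more positive. With the replicate block no proteasome, ribosomal, polyamine, matrix or snoRNA host gene was called, and neither was U2SURP. None of 5 metallothioneins was called by edgeR's quasi-likelihood test or by DESeq2, and 0 had an unadjusted p under 0.05. The medians of the proteasome, ribosomal and matrix lists were -0.07, -0.03 and -0.08, and 0.10, 0.14 and 0.09 when scaling by library size alone. Against scramble, without A549 scramble 3, 55 of the 77 ribosomal protein genes were called more positive and 0 more negative, with a median of 0.61.

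The 13 mitochondrially encoded mRNAs all had negative values, with a median interaction of -0.92, and none passed edgeR's quasi-likelihood test with 12 libraries, while 11 had an unadjusted p under 0.05 and DESeq2 called 7 more negative. MT-CO1, a subunit of cytochrome oxidase, was at 6643, 6928 and 8745 CPM in HEK293T eGFP and at 15010, 11310 and 6754 CPM with SF3B2, and the groups overlapped through replicate 3. In A549 it was at 19650 to 22420 CPM with eGFP and at 16940 to 20130 CPM with SF3B2. MT-ATP8 had -1.42 without HEK293T eGFP 3, with an adjusted p of 0.032 (edgeR's quasi-likelihood test). Mitochondrially encoded transcripts held 4.38% to 8.94% of the counts in HEK293T SF3B2 and 4.21% to 5.45% in HEK293T eGFP.

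**Figure D3:**
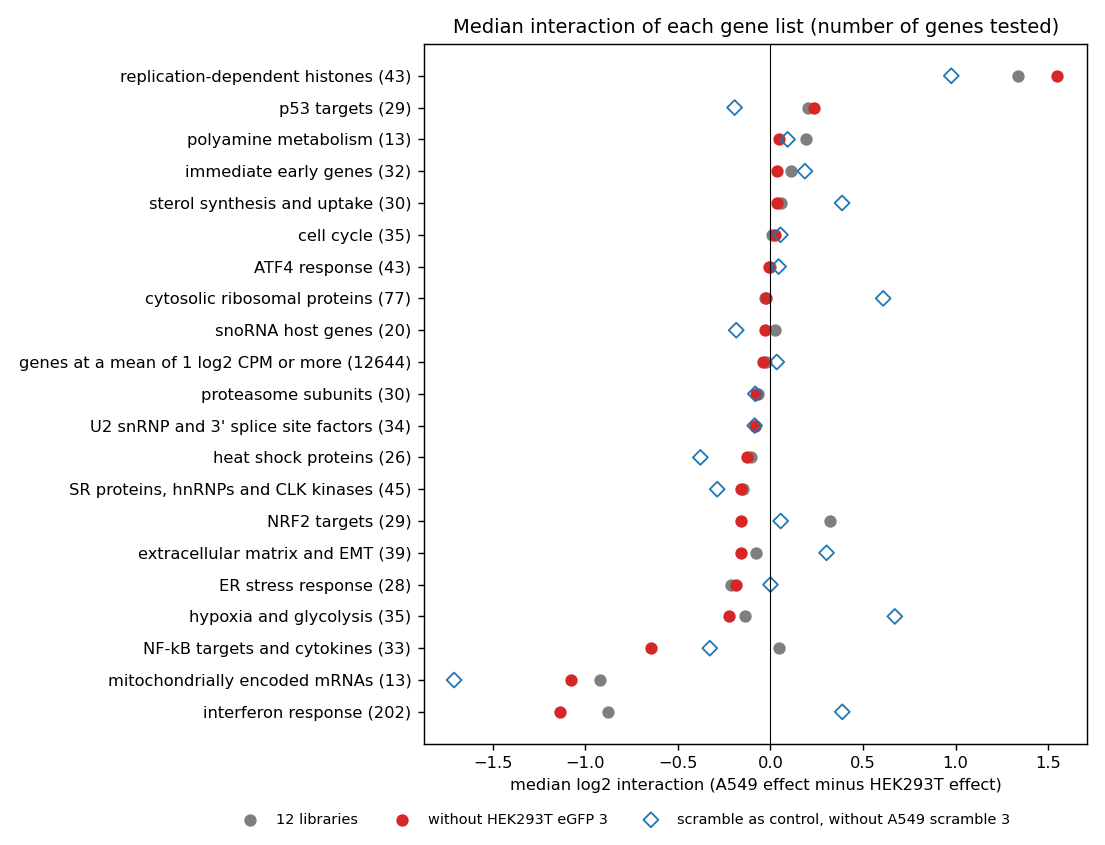
The x axis is the median log2 interaction of each gene list, with the number of genes tested in brackets, for 12 libraries (grey), without HEK293T eGFP 3 (red), and with scramble as control without A549 scramble 3 (open diamonds). Replication-dependent histones lie to the right under all 3, at 1.34, 1.55 and 0.98, whereas the lists of interferon, hypoxia and ribosomal protein genes change side or lie far apart between the controls.

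The effects varied with the GC content of the transcripts. Across 12092 genes at 1 log2 CPM or more with a GENCODE 44 transcript, GC content had a Pearson correlation of 0.34 with the A549 effect, -0.14 with the HEK293T effect and 0.28 with the interaction. Without HEK293T eGFP 3 the last 2 were -0.26 and 0.38. These are descriptions across genes measured in the same libraries. Of the 1210 genes with the lowest GC content (27.9% to 38%), 178 were called more negative in A549 and 6 more positive. Of the 1210 with the highest (60.8% to 74.2%), 9 were called more negative and 94 more positive. The median interaction ran from -0.23 to 0.23 between these groups. The genes called more positive had a median GC content of 54.8% and those called more negative 41.1%, against 47.1% for all. Within HEK293T SF3B2 the deviation of each library from its line correlated with GC content at -0.22, -0.19 and 0.15 in replicates 1, 2 and 3, and the 3 A549 SF3B2 libraries had 0.21, 0.31 and 0.24. A549 scramble 3 had 0.22, and the other A549 scramble libraries -0.23 and -0.20. With the GC trend taken out of each library and without HEK293T eGFP 3, 462 of the 905 genes and 34 of the 49 named genes called in the interaction were still called in the same direction. The part of library preparation in this was not tested.

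**Figure D4:**
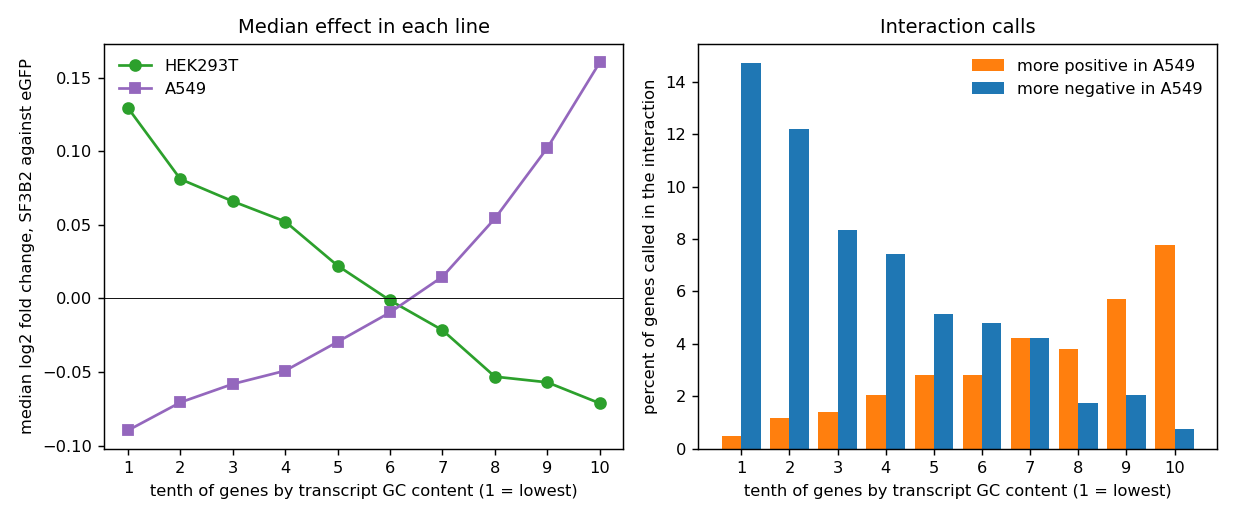
Genes at a mean of 1 log2 CPM or more are split into 10 groups by transcript GC content. The left panel gives the median log2 fold change over eGFP in each line, and the right panel the percent of genes called in the interaction in each direction, with more negative calls at the lowest GC content (14.7%) and more positive calls at the highest (7.77%).

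The result depended on which control was used. With scramble in place of eGFP, and without A549 scramble 3, which held SF3B2 at 8772 CPM, 273 of the 905 genes were called in the same direction and 110 in the opposite one. These fits share the SF3B2 libraries. In levels scaled over all 24 libraries, the mean of PLEKHA4 in A549 was 13.1 CPM with eGFP, 1.88 CPM with scramble (replicates 1 and 2) and 3.19 CPM with SF3B2, and its interaction turned from -2.14 to 1.12. PPM1K was at 19.7, 6.61 and 7.14 CPM in the same groups, and its interaction was 0.07 against scramble. PDZD2 was at 2.1, 0.64 and 0.664 CPM in these groups and MAP2 at 12.7, 6.98 and 7.3 CPM. Their interactions against scramble were 0.068 and -0.079. In HEK293T the means of CASS4 were 9.21 CPM with eGFP, 0.695 CPM with scramble and 5.12 CPM with SF3B2, and those of INHBE 11.8, 2.84 and 2.83 CPM. The interaction was then -0.96 for CASS4 and 0.25 for INHBE, the latter not called (adjusted p = 0.621, edgeR's quasi-likelihood test). The mean log2 CPM of the interferon list was 4.12 to 4.34 in A549 eGFP, 2.59 to 2.62 in A549 scramble and 2.96 to 3.16 in A549 SF3B2, and its part in these results was not tested.

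Of the 49 named genes called in the interaction against eGFP, 13 were called in the same direction against scramble, 10 in the opposite direction and 26 not at all. Those in the same direction were ESRRB, H2BC15, HSPA6, ARC and DANCR, more positive in A549, and LINC02246, SOD2, SLC1A3, SCARNA7, HMGB1P5, U2SURP, PSMA4 and PSMC2, more negative. Without A549 scramble 3, HSPA6 had 2.23 against scramble, ARC 1.70, ESRRB 1.41 and H2BC15 1.06, and LINC02246 had -0.59. In HSPA6, A549 scramble 1 and 2 were at 0.72 and 0.669 CPM, scramble 3 at 2.08 CPM, and the A549 SF3B2 mean at 8.65 CPM. HEK293T scramble 1, 2 and 3 were at 0.253, 0.235 and 0.288 CPM. The HEK293T means of HSPA6 were 0.84 CPM with eGFP and 0.684 CPM with SF3B2, so its direction in HEK293T depended on the control. HSPA6, H2BC15, LINC02246 and SOD2 were the 4 genes also called with the replicate block, with the GC trend out, and in all 12 fits without 1 library. Of the 49, 22 were called with the replicate block and 25 in all 12 of those fits. The most calls of named genes, 23 each, were lost without A549 SF3B2 2 or without HEK293T SF3B2 2.

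**Figure D5:**
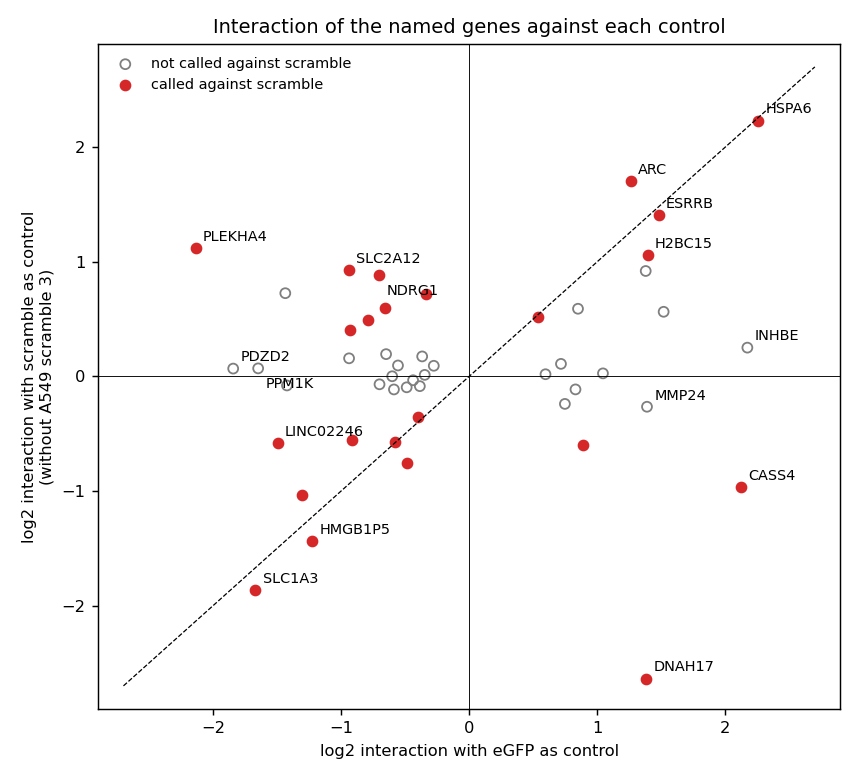
Each point is 1 of the 49 named genes called against eGFP, with its log2 interaction against eGFP on the x axis and against scramble, without A549 scramble 3, on the y axis. HSPA6, ESRRB, H2BC15 and ARC lie near the dashed line of equal values, while PLEKHA4, CASS4 and DNAH17 lie in the opposite quadrants.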

How the data were processed

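RNA-seq of 12 of the 24 libraries was used, in 4 groups named in the labels. The authors trimmed the reads with Trim Galore, quantified them with Salmon on hg38 per the labels, and deposited these estimated counts (60236 Ensembl genes) without scaling between libraries. The transcriptome release is not given in the sources used here. Of these values 51% were not whole, and all were rounded. Genes kept by filterByExpr (24714) were TMM-normalized, and edgeR 4.0.16 (R 4.3.3) tested them by its quasi-likelihood F-test, with 1 mean per group, Benjamini-Hochberg adjustment and a threshold of 0.05. CPM are TMM-scaled, and the SE is the log2 value divided by the root of F. Levels are not per length and were compared only within a gene. GC content came from GENCODE 44 transcripts (93.3% of the genes tested had a value) and a spline with 5 degrees of freedom was taken out per library.

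The members and the gene lists were chosen with earlier results of these data known. The named genes were SF3B2, the 8 most positive and 8 most negative values among the 905 genes described, the 4 in each direction with the largest opposite effects where as many existed, and up to 2 called members of each list with the smallest adjusted p. Further genes were picked with their values in view. Alternatives were DESeq2 1.42.0, RLE, library size alone, other count filters, all 24 libraries, a log2 limit of 1, scramble as control and each library left out. Residuals of same-numbered libraries correlated at 0.106, 0.252 and 0.284 in HEK293T and at -0.0323, -0.0311 and 0.0181 in A549. The numbers thus met the limit of 0.1 for pairing in HEK293T only. There HEK293T SF3B2 2 and eGFP 1, of unlike number, also correlated at 0.229, so these values do not single out pairing by number. The labels give no shared day, and the paper says that the 3 replicates of its genomic experiments were handled on 1 day. The block is printed for only part of the calls and counts described. Of the 49 named genes called in the interaction, 22 were called with it. The 11 more positive ones were INHBE, CASS4, SMG1P2, ESRRB, H2BC15, MMP24, CYP39A1, SPRED3, SMTN, HSPA6 and H2AC6. The 11 more negative ones were PLEKHA4, PDZD2, PPM1K, LINC02246, SLC2A12, LRCH2, ID4, TMEM50A, NDRG1, PMAIP1 and SOD2. No 2 libraries of a group were copies.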

Additional observations from a re-analysis of the deposited data

Results flagged for a closer look

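In 49 named genes the effect of SF3B2 over eGFP differed between the cell lines by the interaction test itself. This was edgeR's quasi-likelihood test, at an adjusted p under 0.05, and a call in it was part of the rule for naming them. Against scramble, without A549 scramble 3, 13 were called in the same direction, 10 in the opposite direction and 26 not at all. The values that follow are those against eGFP. The log2 interaction was positive, meaning a more positive effect in A549, for INHBE (2.17), CASS4 (2.12), SMG1P2 (1.52), ESRRB (1.48), H2BC15 (1.40), MMP24 (1.39), DNAH17 (1.38), SLX1A-SULT1A3 (1.38), CYP39A1 (0.85), SPRED3 (0.83), SMTN (0.72), HSPA6 (2.26), DNAJB2 (0.60), PLK3 (0.89), ARC (1.26), H2AC6 (0.75), DANCR (0.54) and SNHG15 (1.04). It was negative for PLEKHA4 (-2.14), PDZD2 (-1.84), SLC1A3 (-1.67), PPM1K (-1.65), LINC02246 (-1.50), MAP2 (-1.42), SCARNA7 (-1.30), HMGB1P5 (-1.23), SLC2A12 (-0.94), LRCH2 (-0.94), ID4 (-0.93), TMEM50A (-0.70), ERO1A (-0.59), DNAJB9 (-0.60), STARD4 (-0.79), SC5D (-0.35), HK2 (-0.65), NDRG1 (-0.70), PMAIP1 (-0.66), MYC (-0.34), SOD2 (-0.92), TNFAIP8 (-0.56), INHBA (-1.44), U2SURP (-0.58), SRSF12 (-0.49), OGT (-0.39), PSMA4 (-0.40), PSMC2 (-0.49), SMS (-0.28), RPL14 (-0.37) and RPL23 (-0.44).

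In the A549 scramble libraries, which the comparison with eGFP does not use, replicate 3 held SF3B2 at 8772 CPM, against 371.4 and 339.7 CPM in replicates 1 and 2 and 45620 to 48860 CPM in A549 SF3B2. The counts with scramble as control are given with and without it.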

How the results depend on the processing

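Counts of calls are given for the interaction, HEK293T and A549 in this order, from 1507, 1278 and 483. Some settings moved all 3 by over 1.5 times: DESeq2 gave 4004, 3885 and 1320, all 24 libraries 3472, 3406 and 811, the replicate block 402, 308 and 251, a log2 limit of 1 gave 382, 209 and 209, and leaving out HEK293T eGFP 3 and SF3B2 3 gave 4900, 4104 and 961. Without a count filter the first 2 were 784 and 548, at least 10 counts in every library gave 1944 in HEK293T, and library size alone 2787. Each line alone gave 39 in HEK293T and 1516 in A549, which turned the order of the 2 lines. The GC trend taken out gave 894 in the interaction. Without 1 library the interaction lay between 423 (without HEK293T SF3B2 2) and 4527 (without HEK293T SF3B2 3), and only without HEK293T eGFP 3 (1772) or A549 eGFP 3 (1046) was it within 1.5 times. HEK293T lay between 155 and 4146, and A549 between 272 and 739, with the same 2 libraries at the ends except that A549 was lowest without A549 SF3B2 1. The cause was not tested.

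With scramble as control, 6017 genes were called in the interaction, and 7185 without A549 scramble 3. The sign of these named genes turned: SF3B2 -2.51, CASS4 -1.09, MMP24 -0.36, DNAH17 -2.59, PLEKHA4 1.06, PDZD2 0.0903, PPM1K 0.13, MAP2 0.0084, SPRED3 -0.19, SLC2A12 0.91, LRCH2 0.16, ID4 0.41, TMEM50A 0.017, DNAJB2 -0.0297, DNAJB9 0.036, STARD4 0.49, SC5D 0.029, HK2 0.22, NDRG1 0.91, PMAIP1 0.65, PLK3 -0.60, MYC 0.72, TNFAIP8 0.21, INHBA 0.73, H2AC6 -0.23, SNHG15 -0.11, SMS 0.12, RPL14 0.20, RPL23 0.036. Without A549 scramble 3 it turned for CASS4 -0.96, MMP24 -0.26, DNAH17 -2.64, PLEKHA4 1.12, PDZD2 0.068, PPM1K 0.0699, SPRED3 -0.11, SLC2A12 0.93, LRCH2 0.16, ID4 0.40, DNAJB9 0.0010, STARD4 0.49, SC5D 0.013, HK2 0.19, NDRG1 0.88, PMAIP1 0.59, PLK3 -0.60, MYC 0.72, TNFAIP8 0.095, INHBA 0.73, H2AC6 -0.24, SMS 0.093, RPL14 0.17. No other setting turned a named gene. The SF3B2 interaction was called with DESeq2, with library size alone and without HEK293T SF3B2 1, and not otherwise. Of the 50 named genes, library size alone took the call from 17, the replicate block from 27, the GC trend from 13, and leaving out single libraries from between 0 and 23. Depth limits only the lowest genes, such as SLC1A3 in A549.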
